A study of Homo sapiens with 89 samples.

Results

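The subject here is 244 well counted antisense genes of human neuroblastoma cells. Each has a symbol ending in -AS1, the name given to the first antisense transcript recorded at a gene, and averaged at least 30 raw counts per library over 6 libraries of the line IMR-32. They were drawn from 1596 -AS1 genes among 57905 gene rows. A further 1351 -AS1 genes fell short of 30 counts, 609 of them without a single count in IMR-32, and 1 gene (EPB41L4A-AS1) was left out by the rule. The genes were chosen by their mean count in IMR-32, so that level is given as a description. No value of the second line, SHEP, played a part in the choice. The mean runs over both IMR-32 groups, so a difference between them could carry a gene over the limit: 24 of the 244 averaged under 30 counts in 1 of the groups, 14 in the controls and 10 in shEXOSC10. PRDM8-AS1, SCOC-AS1 and CTNS-AS1 stood just inside the limit with 30 counts each, and PANK2-AS1 (29.8), TAF1A-AS1 (29.5) and RBM26-AS1 (29.5) just outside it.

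The study asked how the MYC-family transcription factor MYCN relates to the nuclear RNA exosome, and 15 libraries of polyadenylated RNA from 5 groups of 3 were used. In IMR-32, a neuroblastoma line grown in culture, the shEXOSC10 group carried a doxycycline-inducible short hairpin RNA against EXOSC10 and received 1 µg/ml doxycycline, and its control group received none, with ethanol in its column names. In SHEP, a neuroblastoma line with inducible MYCN constructs, 1 group was labelled wild type MYCN (WT) and 1 was labelled 3A, a triple mutant of MYCN that the labels call deficient in RNA binding. Both of these received 1 µg/ml doxycycline, and the SHEP group labelled no MYCN received none. Doxycycline and the depletion or the construct therefore differ together in every comparison with an untreated group and cannot be told apart there, while WT against 3A was compared with the drug on both sides. The labels do not say whether the 3 libraries of a group came from separate cultures, so each p-value measures the spread between these libraries, which may be technical.

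An antisense gene is read from the DNA strand opposite to a neighbouring, usually protein-coding gene, here called the sense gene. Some start beside the sense promoter and run away from it, some start within the sense gene and run back against it, and some meet its far end. Most are noncoding RNAs, and a few are known to act on the gene they face, while for many no function is established. The nuclear exosome is a complex that trims and degrades RNA from its 3' end. Its catalytic subunit EXOSC10 works in the nucleus and nucleolus, and noncoding transcripts from promoters and antisense strands are among the RNAs that the exosome removes.

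The label antisense was checked against the gene models of the tables (Ensembl release 87, genome build hg19). The sense gene named before -AS1 had a row for all 244 genes. Of the 244, 87 (35.7%) lay head to head with the sense gene, meaning opposite strands with starts at most 1000 bases apart. By these models 13 of the 87 started upstream of the sense start, and the median start lay 390 bases downstream of it. Exons of 66 of the 87 shared bases with the sense gene, so the class is not limited to starts that diverge. A further 81 (33.2%) started inside the sense gene on the other strand, over 1000 bases from its start, and 69 (28.3%) lay tail to tail. Tail to tail here means a start beyond the far end of the sense gene with overlapping spans, wherever the antisense gene ends. FOXD2-AS1, PRDX6-AS1 and DNAJC9-AS1 started upstream of the sense gene and apart from it, and MAFA-AS1, SLC25A25-AS1 and NUTM2B-AS1 lay apart downstream. HILPDA-AS1 was annotated on the same strand as HILPDA and is antisense in name only. Exons of 192 of the 244 shared at least 1 base with exons of the sense gene.

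Libraries held 16394148 to 26193478 counts in IMR-32 and 11638859 to 15353505 in SHEP. The antisense genes took 0.339 to 0.352% of the counts in shEXOSC10 libraries and 0.352 to 0.357% in IMR-32 controls, and 0.0986 to 0.118% in SHEP. EXOSC10 was lower in all 3 shEXOSC10 libraries (49.0, 46.7 and 46.1 CPM, counts scaled to a common library total) than in the controls (74.6, 64.0 and 67.1 CPM). The MYCN row does not check the SHEP labels: it held 2, 0 and 0 counts in WT-labelled, 10, 0 and 0 in 3A-labelled and 4, 0 and 0 in libraries labelled no MYCN. The SHEP groups are therefore named by their labels throughout. Adrenergic neuroblastoma markers summed to 2109.6 to 3705 CPM in IMR-32 and 122 to 151 CPM in SHEP, and mesenchymal markers to 505 to 559 CPM in IMR-32 and 5283 to 7210.0 CPM in SHEP. Defining markers of leukocytes, endothelium and epithelium were at under 1 CPM for 4 or 5 of each list in all 5 groups. Of the 5 endothelial markers 4 had a row. Leukocyte markers summed to 2.55 to 4.13 CPM in IMR-32 and 9.49 to 16.6 CPM in SHEP.

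SHEP reads were counted by strand, and for IMR-32, whose counting settings are not given, this was inferred from the values. At genes facing a strongly expressed gene, the density on the silent strand had a median of 0.398% of the facing density in IMR-32 and 0.0913% in SHEP. At those rates, leakage from all genes with overlapping exons on the other strand could reach over 10% of the count for 3 antisense genes in IMR-32 and 8 in SHEP. The silent strand ranged from 0 to 3.87% of the facing density in IMR-32 and to 1.01% in SHEP, and at those highest values the counts would be 27 and 35 genes. A separate limit applies to 26 genes whose exons share bases with another gene on their own strand. In 11 of them that part exceeded 10% of the exon length, among them GATA3-AS1 (29.9%) and MAPKAPK5-AS1 (33.9%). Reads in such a part count for both genes in SHEP, and in IMR-32 that was inferred from the values.

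To show the head to head layout, promoter windows are printed for the 4 head to head pairs in which the antisense and the sense gene moved together in a comparison given further on and whose RefSeq starts point away from each other at most 250 bases apart. They come from RefSeq (GRCh38.p14), which had a promoter for 188 of the 244 antisense genes and 198 of their sense genes. Each runs from 250 bases before to 50 bases after the start of the antisense gene, 5′ to 3′ on its strand, and the capitals mark the bases from the start of the sense gene to the base before the start of the antisense gene. UNC5C-AS1 (chr4:95548898-95549197, plus strand) has 175 such bases, GATA3-AS1 (chr10:8053435-8053734, minus strand) 157, ZNF22-AS1 (chr10:45000754-45001053, minus strand) 120 and TPT1-AS1 (chr13:45341095-45341394, plus strand) 162.
UNC5C-AS1: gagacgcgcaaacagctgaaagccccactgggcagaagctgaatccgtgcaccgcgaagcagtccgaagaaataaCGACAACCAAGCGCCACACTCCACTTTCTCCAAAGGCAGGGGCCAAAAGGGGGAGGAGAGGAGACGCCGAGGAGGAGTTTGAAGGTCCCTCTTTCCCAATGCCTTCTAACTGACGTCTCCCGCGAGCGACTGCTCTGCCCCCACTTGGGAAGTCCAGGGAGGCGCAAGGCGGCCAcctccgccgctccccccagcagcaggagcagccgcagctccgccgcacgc
GATA3-AS1: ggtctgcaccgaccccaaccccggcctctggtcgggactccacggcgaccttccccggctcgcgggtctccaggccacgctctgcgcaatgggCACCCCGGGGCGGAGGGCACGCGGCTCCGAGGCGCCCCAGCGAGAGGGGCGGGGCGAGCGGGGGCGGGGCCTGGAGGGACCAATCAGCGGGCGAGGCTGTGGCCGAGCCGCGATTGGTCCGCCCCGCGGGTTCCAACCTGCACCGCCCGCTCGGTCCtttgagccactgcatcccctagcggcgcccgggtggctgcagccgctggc
ZNF22-AS1: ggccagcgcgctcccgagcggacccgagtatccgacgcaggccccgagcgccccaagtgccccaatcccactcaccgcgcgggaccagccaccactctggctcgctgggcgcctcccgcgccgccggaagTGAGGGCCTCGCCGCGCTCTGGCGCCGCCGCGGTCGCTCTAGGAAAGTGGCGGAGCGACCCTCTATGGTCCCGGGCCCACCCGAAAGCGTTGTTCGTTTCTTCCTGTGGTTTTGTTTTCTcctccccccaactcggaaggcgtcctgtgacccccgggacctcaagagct
TPT1-AS1: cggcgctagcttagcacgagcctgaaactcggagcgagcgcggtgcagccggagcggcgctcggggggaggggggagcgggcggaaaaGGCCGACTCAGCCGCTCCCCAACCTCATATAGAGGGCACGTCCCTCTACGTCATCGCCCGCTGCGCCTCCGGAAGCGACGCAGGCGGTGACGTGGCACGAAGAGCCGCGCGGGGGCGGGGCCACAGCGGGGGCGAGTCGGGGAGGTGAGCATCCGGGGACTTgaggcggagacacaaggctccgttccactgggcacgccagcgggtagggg
The windows hold 63.3, 76.3, 69.7 and 71.7% G and C and 22, 36, 35 and 38 CG pairs, in the order printed. RefSeq and the Ensembl models of the tables place some of these starts differently: in the tables the first exons of UNC5C-AS1 and UNC5C share 78 bases.

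Over the 67 head to head pairs with both promoters in RefSeq, the closest starts lay a median of 216 bases apart. In 36 pairs they were within 250 bases, and in 28 of those the starts pointed away from each other without overlap. Promoters of the 188 matched antisense genes had a median of 65.3% G and C and 25.0 CG pairs in 300 bases, against 58.3% and 14 for all 27305 genes of the RefSeq table. Their sense genes were alike at 65.7% and 24. The 27305 genes were not filtered by expression as the antisense genes were, and windows of pairs with close starts share bases. The hexamer CACGTG, the canonical E-box bound by MYC and MAX proteins, reads the same on both strands. It occurred in a window of 18 of the 188 antisense genes (9.57%), 26 of the 198 sense genes (13.1%) and 2396 of all 27305 genes (8.77%). Genes differ in their number of windows, and per window the shares were 8.56% for the antisense genes, 8.90% for the sense genes and 7.26% for all genes. None of the 4 windows printed above holds it.

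Levels in IMR-32 spanned a wide range. Per kilobase of exon, the antisense genes had 0.240 to 58.3 CPM in the controls, with a median of 1.99, and their sense genes had a median of 6.11. The level of an antisense gene was a median of 36.5% of that of its sense gene, and 71 of the 244 stood above the sense gene. HAND2-AS1, beside the sympathetic neuron transcription factor HAND2, was the highest and took 13.9% of all counts of the antisense genes. The 10 most counted took 44.3%.

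After HAND2-AS1 at 58.3 CPM per kb came GABPB1-AS1 (38.3), SLC9A3-AS1 (37.3) and FGD5-AS1 (32.7), then THAP9-AS1 (26.2), ASB16-AS1 (21.4), CD27-AS1 (20.7) and TBX2-AS1 (20.3). On this scale the control libraries of GABPB1-AS1 (37.6 to 38.8) overlapped those of SLC9A3-AS1 (35.7 to 38.7), and those of ASB16-AS1 (21.0 to 22.2), CD27-AS1 (19.2 to 21.5) and TBX2-AS1 (18.5 to 21.8) overlapped each other. HAND2-AS1, FGD5-AS1 (30.4 to 34.4) and THAP9-AS1 (25.9 to 26.9) overlapped no neighbour in the order. Several of these stood far above a sense gene that was itself hardly counted, such as SLC9A3, a sodium-proton exchanger of epithelia, and FGD5, a gene of endothelial cells. FGD5 had no count in the 9 SHEP libraries, where FGD5-AS1 was the highest of all antisense genes at 26.4 CPM per kb.

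The choice by IMR-32 counts favours genes of that line, so the levels in SHEP are given for what they are. In libraries labelled no MYCN the median was 0.626 CPM per kb. Over the 9 SHEP libraries 106 of the 244 averaged 30 counts or more, 36 averaged under 1, and 18 had no count at all. By CPM, 49 were higher in SHEP labelled no MYCN than in IMR-32 controls. Behind FGD5-AS1 the order in SHEP was ATP2A1-AS1 (19.2 CPM per kb), PITPNA-AS1 (14.4), ARRDC1-AS1 (11.6), VPS9D1-AS1 (10.6), ZNF232-AS1 (10.2), MAPKAPK5-AS1 (9.42) and URB1-AS1 (9.36).

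Antisense genes that SHEP nearly lacked included GATA3-AS1 of the adrenergic core. GATA3-AS1, beside the zinc finger factor GATA3, averaged 634 counts in IMR-32 and 0.444 in SHEP. RAMP2-AS1, PDE6B-AS1, RUNDC3A-AS1 and FMNL1-AS1 were at 0 in all 9 SHEP libraries, with IMR-32 means of 1221, 536, 286 and 214 counts. TP73-AS1 had 910.5 counts in IMR-32 and 0.111 in SHEP. HAND2-AS1 differed from these, with 7.15 ± 1.04 CPM in SHEP labelled no MYCN (SD, n = 3).

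**Figure D1:**
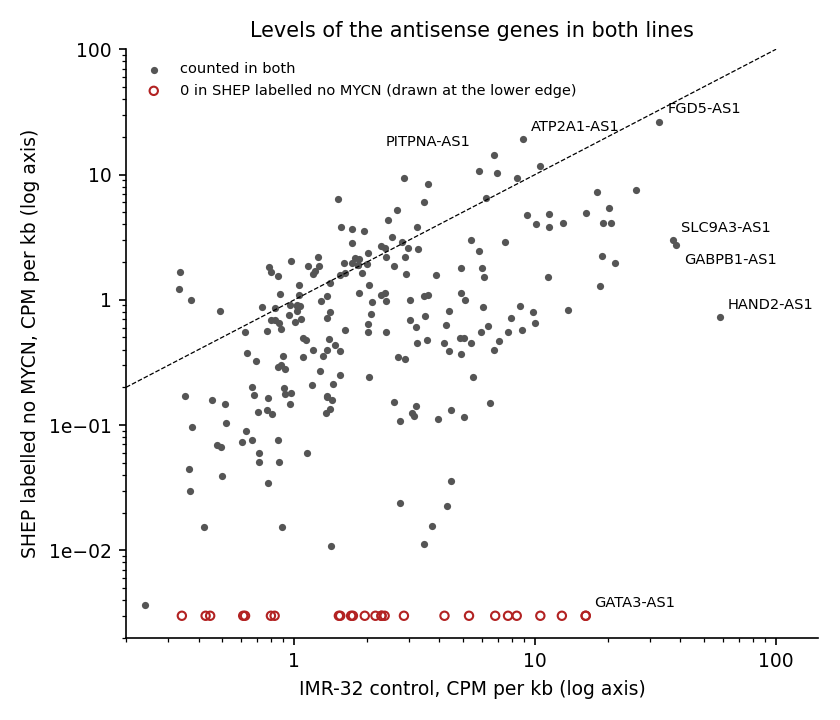
Level per kilobase of exon of the 244 antisense genes in IMR-32 controls (horizontal, CPM per kb, log axis) and in SHEP libraries labelled no MYCN (vertical, CPM per kb, log axis), with the mean of 3 libraries per point and the dashed line at equal levels. Most points lie below the line, HAND2-AS1 stands at 58.3 on the IMR-32 axis, and open circles mark genes at 0 in SHEP labelled no MYCN.

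Upon EXOSC10 depletion the antisense genes did not move as a block. Of the 244, 20 were higher and 22 lower in shEXOSC10 than in control libraries at an edgeR adjusted p under 0.05 over all genes tested, which is 17.2% of them, where 27.1% of all 17103 genes tested passed (13.5% higher and 13.7% lower). The median log2 fold change was -0.03, and 0.00 over all genes. In 80 antisense genes (32.8%) the 2 groups of libraries did not overlap, against 38.4% of all genes. Their median mean count was 98.2, against 404 for all genes tested, and the part of depth in the smaller share of calls was not tested. Among the 220 genes with at least 30 counts in each group, a restriction added after seeing the data, 18 were higher and 19 lower. In 8 of the called genes the change was at least 2-fold. Without shEXOSC10 replicate 3, the deepest library, 14 were called lower. The plot of changes in 4 comparisons shows the called genes on both sides of 0.

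Among the 162 other antisense genes that could be tested, which are -AS1 genes under 30 counts and those named -AS or -AS2 and higher, 12 were higher and 2 lower (8.64%), with a median of 0.12. The difference between them and the 244 was not tested.

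**Figure D2:**
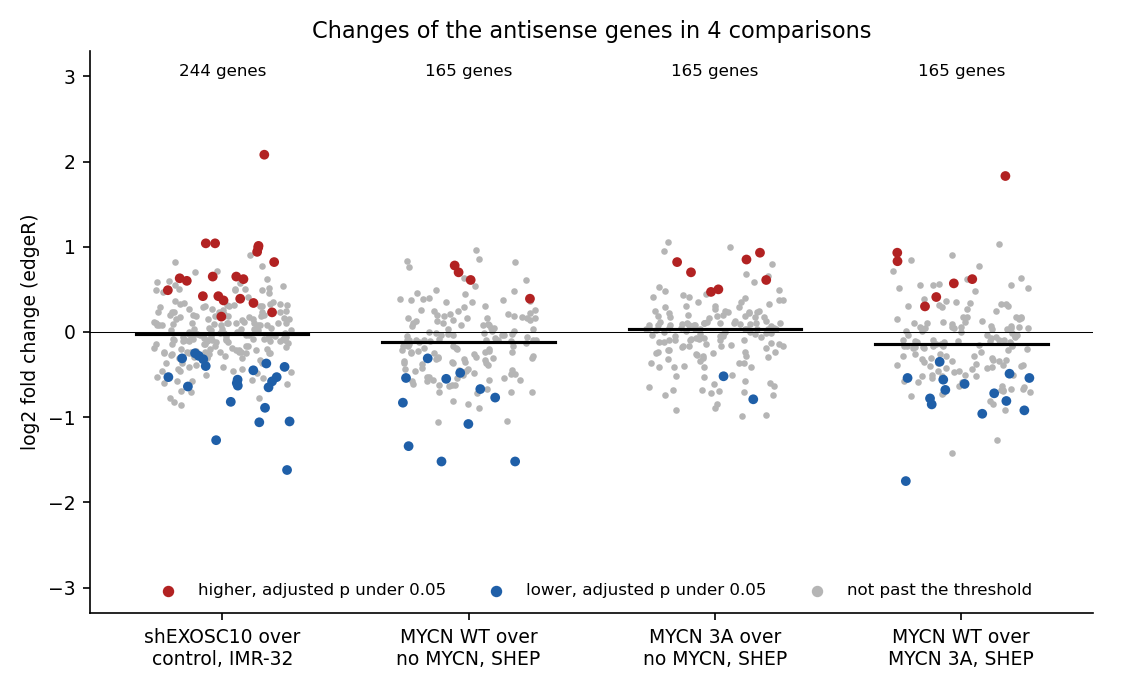
Log2 fold changes (vertical) of the antisense genes tested in 4 comparisons (horizontal), with the median as a black bar and genes past an edgeR adjusted p of 0.05 in red (higher) or blue (lower). The medians lie at -0.03, -0.12, 0.03 and -0.14, and UNC5C-AS1 stands at 2.08 on EXOSC10 depletion.

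HAND2-AS1 and GATA3-AS1, antisense genes of the adrenergic core, were lower in shEXOSC10 together with the factors they face. HAND2-AS1 (chr4:174448421-174512475, plus strand, hg19) starts inside HAND2 and shares 769 exon bases with it. It had 419.6, 378 and 392 CPM in shEXOSC10 libraries, against 587, 553 and 579 CPM in controls. The groups were well apart, a 1.44-fold lower level in shEXOSC10 (log2 fold change -0.53 ± 0.04 SE, edgeR adjusted p = 1.8e-16). HAND2 itself was at 357, 334 and 350.0 CPM in shEXOSC10 and 589, 539 and 536 CPM in controls, a change of -0.68 ± 0.04 (3.6e-21). The log2 ratio of HAND2-AS1 to HAND2 was 0.15 higher in shEXOSC10, without overlap (exact two-sided permutation test, p = 0.10, the smallest that 3 against 3 allows).

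GATA3-AS1 (chr10:8092413-8095447, minus strand, hg19) had 25.1, 25.5 and 24.3 CPM in shEXOSC10, against 34.9, 33.6 and 39.3 CPM in controls. All 3 shEXOSC10 libraries were below all 3 controls (-0.53 ± 0.10, edgeR adjusted p = 8.8e-06). GATA3 was at 209, 209.9 and 214 CPM in shEXOSC10 and 401, 395 and 395 CPM in controls (-0.91 ± 0.05, 2.5e-27), so the antisense to sense ratio was 0.39 higher on the log2 scale in shEXOSC10 (exact permutation p = 0.10). TBX2-AS1, beside the T-box factor TBX2 of the same core, had -0.12 (0.43) and did not pass.

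The fall of these genes came with a lower sum of the 10 adrenergic markers, HAND2 and GATA3 among them, at 2109.6 to 2173 CPM in shEXOSC10 and 3415 to 3705 CPM in controls. Mesenchymal markers summed to 531 to 559 CPM in shEXOSC10 and 505 to 535 CPM in controls. Schwann cell markers summed to 20.3 to 22.7 CPM in shEXOSC10 and 15 to 22.2 CPM in controls. Fewer cells of a type and less RNA per cell cannot be told apart in bulk RNA, and the part of cell state in these results was not tested.

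The homeobox and patterning list held another pair of antisense genes. DLX6-AS1, known in mouse as a regulator of its DLX neighbours in forebrain interneurons, had 15.7, 10.5 and 12 CPM in shEXOSC10 and 8.12, 8.73 and 8.04 CPM in controls (0.62 ± 0.16, edgeR adjusted p = 0.00124). The call was lost without shEXOSC10 replicate 1, the highest (0.0571), and DLX6 changed by -0.03 (0.912). FOXD3-AS1, beside the neural crest factor FOXD3, had a log2 fold change of 0.11 (0.743).

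The steepest falls were those of PROX1-AS1 and VLDLR-AS1, both of which start inside the sense gene. Both passed the limit of 30 counts only through the controls (means of 20.7 and 28.3 in shEXOSC10, against 63.0 and 65.0 in controls), so their choice was not independent of the difference. PROX1-AS1 runs against PROX1, a homeobox factor of neural and lymphatic cells, and shares no exon base with it. It had 0.882, 1.21 and 0.911 CPM in shEXOSC10, against 3.21, 4.02 and 1.95 CPM in controls. That is 3.07-fold lower in shEXOSC10 (-1.62 ± 0.37, edgeR adjusted p = 3.6e-04), and PROX1 was lower by less (-0.37 ± 0.08, 8.8e-05). VLDLR-AS1, facing the lipoprotein and reelin receptor gene VLDLR, had 1.42, 0.726 and 1.67 CPM in shEXOSC10 and 3.16, 2.21 and 4.05 CPM in controls (-1.27 ± 0.35, 0.00327), beside -0.40 ± 0.06 in VLDLR (6.5e-07). Both antisense genes rest on few counts per library, for PROX1-AS1 18, 20 and 24 in shEXOSC10 and 66, 82 and 41 in controls.

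Smaller falls concerned SATB1-AS1, OIP5-AS1 and LBX2-AS1. SATB1-AS1, head to head with the chromatin organiser gene SATB1, had 32.0, 25.2 and 28.7 CPM in shEXOSC10 and 37.1, 37.8 and 36.4 CPM in controls (-0.37 ± 0.09, edgeR adjusted p = 0.00148), with SATB1 at -0.34 ± 0.05 (1.4e-07). OIP5-AS1, a cytoplasmic RNA known to bind the microRNA miR-7, had 178, 171 and 178 CPM in shEXOSC10 and 209, 219 and 225 CPM in controls (-0.31 ± 0.05, 1.0e-06). OIP5, the gene at its far end, changed by -0.12 ± 0.14 (0.588). LBX2-AS1 was lower in shEXOSC10 as well (-0.63 ± 0.18, 0.004), beside -0.77 ± 0.33 in the homeobox gene LBX2, which did not pass (0.072).

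UNC5C-AS1 had the largest rise of all 244, but it passed the limit of 30 counts only through shEXOSC10 (mean 109.7, against 25.3 in controls), so its choice was not independent of this difference. It lies head to head with UNC5C, a netrin receptor of axon guidance (chr4:96470280-96473608, plus strand, hg19), and its promoter is the first printed above. It had 4.71, 5.50 and 5.39 CPM in shEXOSC10, against 0.778, 1.47 and 1.43 CPM in controls. Counts were 96, 91 and 142 in shEXOSC10 and 16, 30 and 30 in controls, a 4.22-fold higher level in shEXOSC10 (2.08 ± 0.30, edgeR adjusted p = 2.8e-08). UNC5C was at 159.7, 164 and 167 CPM in shEXOSC10 and 33.7, 34.8 and 35.3 CPM in controls (2.24 ± 0.07, 4.2e-41). The ratio of the pair differed by -0.19 on the log2 scale, with overlapping libraries.

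Several rises came beside a sense gene that did not pass the test. SH3BP5-AS1, tail to tail with SH3BP5, an activator of RAB11 GTPases, had 40.7, 36.1 and 40.7 CPM in shEXOSC10 and 18.0, 20.5 and 22.9 CPM in controls. It was 1.91-fold higher in shEXOSC10 (0.94 ± 0.10, edgeR adjusted p = 3.7e-12), with SH3BP5 at 0.17 ± 0.10 (0.228). PDE6B-AS1, inside the gene of a rod photoreceptor phosphodiesterase subunit, had 35.3, 34.6 and 29.1 CPM in shEXOSC10 and 21.0, 18.7 and 16.3 CPM in controls (0.82 ± 0.11, 2.8e-09). PDE6B was at 3.39 to 5.01 CPM in shEXOSC10 and 3.76 to 4.95 CPM in controls (-0.08 ± 0.23, 0.839). The antisense gene was thus the higher of the pair.

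IL21R-AS1, tail to tail with the interleukin-21 receptor gene IL21R, had 9.17, 9.37 and 8.38 CPM in shEXOSC10 and 3.6, 6.13 and 3.76 CPM in controls (0.99 ± 0.20, edgeR adjusted p = 4.4e-05). IL21R had -1.14 ± 0.46 and did not pass (0.0535). CCDC183-AS1 was 2.05-fold higher in shEXOSC10 (1.04 ± 0.24, 5.0e-04), at 7.40, 4.23 and 5.62 CPM against 2.82, 2.80 and 2.81 CPM in controls, and CCDC183 had 0.13 ± 0.14 (0.576). In each of these genes the libraries of the groups lay apart. SLC25A25-AS1, at 73.0, 64.4 and 67.4 CPM in shEXOSC10 and 58.0, 51.0 and 53.2 CPM in controls, rose by less (0.34 ± 0.07, 2.2e-04), and here the sense gene, SLC25A25, passed as well (0.22 ± 0.08, 0.0387).

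Other rises were shared with the sense gene. RUNDC3A-AS1 had 16.1, 15.8 and 17.8 CPM in shEXOSC10 and 10.7, 11.2 and 9.90 CPM in controls (0.65 ± 0.13, edgeR adjusted p = 8.8e-05), with 0.40 ± 0.05 in RUNDC3A (8.2e-10). EXTL3-AS1 faces EXTL3, a glycosyltransferase of heparan sulfate synthesis, and had 4.41, 3.39 and 4.93 CPM in shEXOSC10 and 2.28, 2.11 and 1.95 CPM in controls (1.01 ± 0.28, 0.00309), with 0.50 ± 0.06 in EXTL3 (5.2e-11). EMC3-AS1, within the gene of an endoplasmic reticulum membrane complex subunit, had 52.3, 57.1 and 54.4 CPM in shEXOSC10 and 43.8, 44.8 and 38.1 CPM in controls (0.37 ± 0.08, 2.2e-04), with 0.24 ± 0.06 in EMC3 (0.00133). In all 3 pairs the antisense and the sense gene moved the same way.

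PCOLCE-AS1 rose less than its partner. PCOLCE, an enhancer of procollagen processing, was at 610.1, 619.6 and 602 CPM in shEXOSC10 and 207, 208 and 209 CPM in controls (1.55 ± 0.04, edgeR adjusted p = 1.7e-41). PCOLCE-AS1 had 6.18, 6.77 and 7.32 CPM in shEXOSC10 and 4.28, 4.66 and 4.00 CPM in controls (0.65 ± 0.21, 0.0124). Its call was lost without shEXOSC10 replicate 3 (0.0751). Leakage from genes facing it could make up 4.89% of its count at the median rate and 47.5% at the highest rate seen. The log2 ratio of the pair was lower in shEXOSC10, with a difference of -0.92 (exact permutation p = 0.10), or -0.88 with the leakage subtracted at the median rate.

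**Figure D3:**
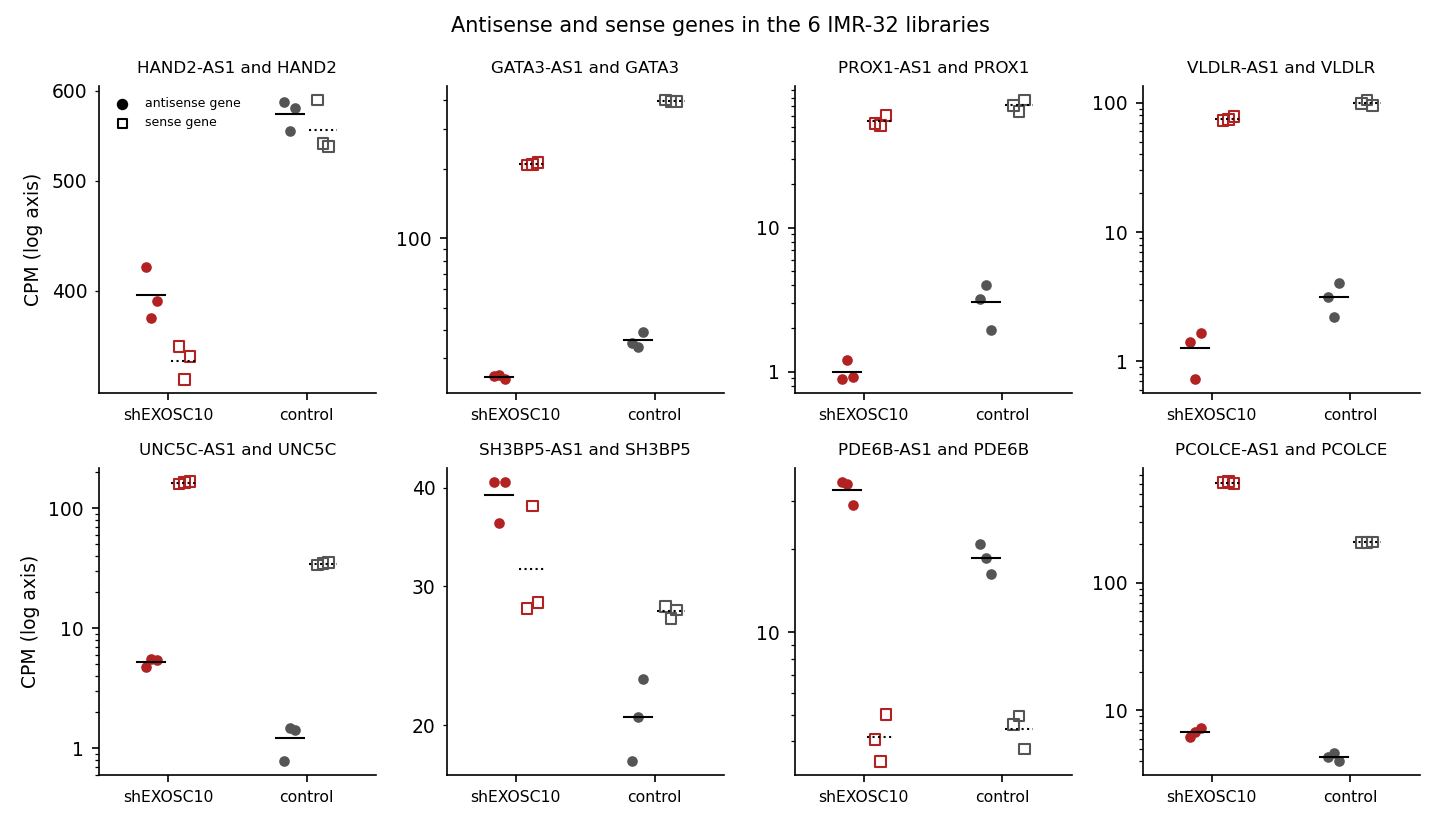
CPM (log axis) of 8 antisense genes (filled circles) and their sense genes (open squares) in each shEXOSC10 and control library of IMR-32, with means of 3 libraries as solid and dotted bars. HAND2-AS1, GATA3-AS1, PROX1-AS1 and VLDLR-AS1 lie lower in shEXOSC10, and UNC5C-AS1, SH3BP5-AS1, PDE6B-AS1 and PCOLCE-AS1 lie higher.

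Of the 230 pairs in which both genes were tested in IMR-32, 17 had both called in the same direction and 1 in opposite directions. With antisense genes of at least 30 counts in each group, a restriction added after seeing the data, the numbers were 14 and 1. The sense gene was called in 32.6% of these pairs, and the signs were alike in 60%. The exception was CCDC18-AS1, tail to tail with CCDC18, at 40.4, 30.8 and 33.6 CPM in shEXOSC10 and 47.6, 38.5 and 40.9 CPM in controls, which overlap (-0.28 ± 0.09, edgeR adjusted p = 0.0187), while CCDC18 had 0.57 ± 0.08 (8.7e-08). The CCDC18-AS1 call was lost without control replicate 1 and without shEXOSC10 replicate 2 or 3, and with DESeq2 (adjusted p up to 0.176). The number of opposite pairs was 2 without control replicate 3 or shEXOSC10 replicate 1, 3 without control replicate 2, and 0 without shEXOSC10 replicate 2 or 3. Among 141 pairs of the other antisense genes, 2 were called in the same direction and 2 in opposite directions, with signs alike in 54.6%. In those pairs 7.80% of the antisense genes were called, against 17.8% in the 230.

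Pairs were also counted by layout. Of 87 head to head pairs, 6 were called in the same direction, with 13 antisense and 27 sense genes called. Of 78 pairs with the start inside the sense gene, 10 were, with 16 antisense and 33 sense genes called. UNC5C-AS1 is among the 6, and PROX1-AS1 and VLDLR-AS1 are among the 10, each carried over 30 counts by 1 group alone. Among 60 tail to tail pairs the count was 0 by edgeR, with 11 antisense and 13 sense genes called. The 1 pair called in opposite directions lay there. At an unadjusted p under 0.05, same-direction pairs numbered 11 head to head, 14 with the start inside and 1 tail to tail. Opposite pairs at that limit numbered 1, 1 and 4. DESeq2 gave 0 tail to tail in either direction, over 69 pairs. As a description across pairs, which share the same 6 libraries and their scaling, the log2 fold changes of antisense and sense genes had Pearson's r = 0.49 and Spearman's rho = 0.37 head to head (n = 87). The values were r = 0.22 and rho = 0.26 with the start inside the sense gene (n = 78) and r = -0.06 and rho = 0.11 tail to tail (n = 60). Without the UNC5C pair, chosen for removal after the values were seen, the head to head r was 0.29. Pairs of the other antisense genes had r = 0.36 and rho = 0.39 head to head (n = 58). They had r = 0.36 and rho = 0.22 with the start inside (n = 58) and r = -0.19 and rho = -0.20 tail to tail (n = 21). The differences between layouts were not tested.

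**Figure D4:**
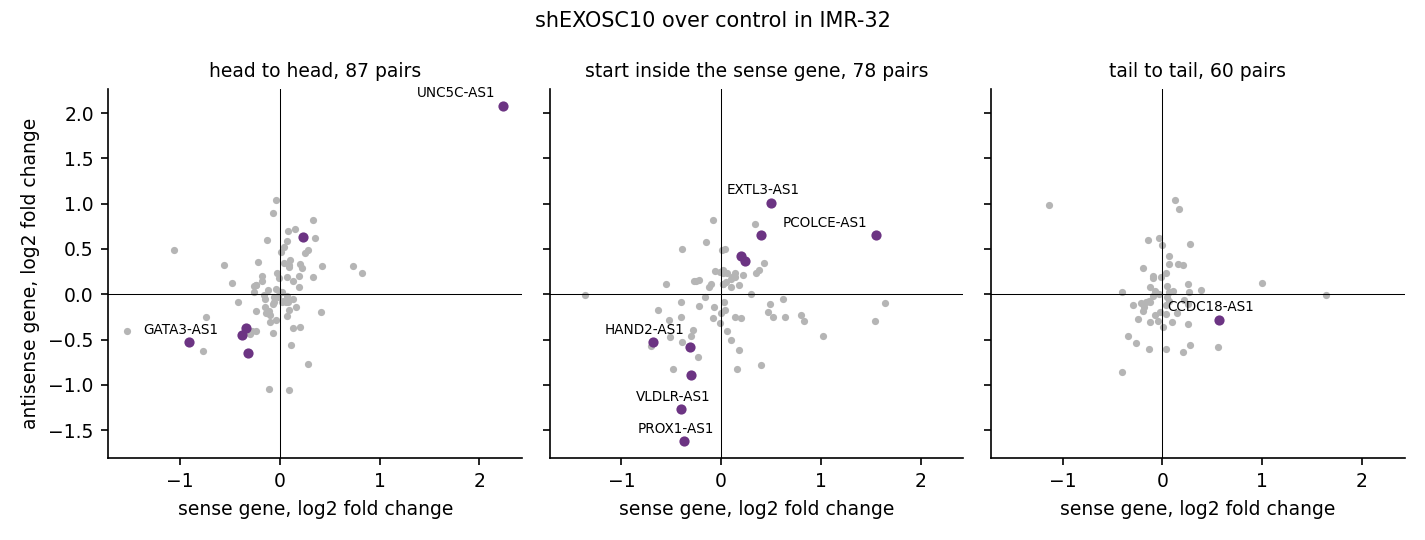
Log2 fold change of the antisense gene (vertical) against that of its sense gene (horizontal), shEXOSC10 over control in IMR-32, for 87 head to head pairs, 78 with the start inside the sense gene and 60 tail to tail pairs. Purple points have both genes past an edgeR adjusted p of 0.05, and the pair of UNC5C-AS1 stands alone at the upper right of the first panel.

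In SHEP, 165 of the 244 antisense genes had counts enough to be tested, with a median mean count of 42.1 against 285 for all 14923 genes tested, and 79 did not. A gene among the 165 passed the count filter on SHEP counts alone, so the 165 are the members that SHEP expresses and not the whole set.

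With wild type MYCN, few antisense genes differed from the libraries labelled no MYCN. Higher in WT-labelled libraries were 4 and lower 11, together 9.09% of the 165, where 22.2% of all genes tested passed (10.9% higher and 11.3% lower). With library totals in place of TMM (trimmed mean of M values, edgeR's scaling) the split was 2 higher and 14 lower. The median log2 fold change was -0.12, and 0.00 over all genes, and 39 had groups that did not overlap (23.6%, against 37.5% of all genes). The number higher was 2 without WT replicate 2, no MYCN replicate 2 or no MYCN replicate 3, and the number lower 7 without no MYCN replicate 2. Mesenchymal markers summed to 6970.3 to 7210.0 CPM in WT-labelled libraries and 5554 to 5855 CPM in those labelled no MYCN. Adrenergic markers summed to 147 to 151 CPM in WT-labelled libraries and 122 to 129 CPM in those labelled no MYCN, and the part of either list in the result was not tested.

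MSC-AS1, tail to tail with the bHLH factor gene MSC (musculin), was among the largest falls. It had 1.43, 3.15 and 2.89 CPM in WT-labelled libraries, against 6.69, 6.79 and 5.40 CPM in libraries labelled no MYCN. The groups lay apart (-1.34 ± 0.27, edgeR adjusted p = 8.8e-04), and MSC fell beside it (-1.17 ± 0.28, 0.00427). TPT1-AS1 lies head to head with TPT1, the gene of an abundant tumour protein, and its promoter is printed above. It had 1.5, 2.22 and 1.69 CPM in WT-labelled libraries and 3.66, 3.88 and 3.96 CPM in those labelled no MYCN (-1.08 ± 0.29, 0.00878), with -0.46 ± 0.09 in TPT1 (5.1e-04). Its log2 ratio to TPT1 differed by -0.59 without overlap (exact permutation p = 0.10, the smallest possible).

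SLC9A3-AS1, TENM3-AS1 and PSMA3-AS1 were lower too. SLC9A3-AS1, whose sense gene was too low to test, had 8.56, 7.52 and 5.44 CPM in WT-labelled libraries and 11.8, 14.5 and 12.2 CPM in those labelled no MYCN (-0.83 ± 0.21, edgeR adjusted p = 0.00548). TENM3-AS1, inside the gene of the adhesion receptor teneurin-3, had 6.73, 5.45 and 6.07 CPM in WT-labelled libraries and 9.79, 10.6 and 10.8 CPM in those labelled no MYCN (-0.77 ± 0.19, 0.00434), with -0.24 ± 0.14 in TENM3 (0.266). PSMA3-AS1, tail to tail with a proteasome subunit gene, had 23.0, 19.3 and 23.4 CPM in WT-labelled libraries and 30.7, 32.2 and 28.4 CPM in those labelled no MYCN (-0.48 ± 0.12, 0.00671), and PSMA3 had -0.05 (0.747). The PSMA3-AS1 call was lost without WT replicate 2 (0.0759).

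CDK6-AS1 is head to head with the cell cycle kinase gene CDK6. It had 0.952, 1.43 and 0.494 CPM in WT-labelled libraries and 3.78, 2.02 and 2.45 CPM in those labelled no MYCN (-1.52 ± 0.40, edgeR adjusted p = 0.00838), while CDK6 had -0.10 ± 0.10 (0.486). Without no MYCN replicate 1, the highest, its call was lost (0.0683). EMC3-AS1 had 11.8, 14 and 10.9 CPM in WT-labelled libraries and 16.3, 19.9 and 17.8 CPM in those labelled no MYCN (-0.55 ± 0.15, 0.00814), together with EMC3 (-0.41 ± 0.09, 0.00157), and lost its call without no MYCN replicate 2 (0.0573). Further falls of WAC-AS1 (-0.54, 0.0153), OIP5-AS1 (-0.31, 0.0163), CLN8-AS1 (-0.67, 0.0196) and SOCS2-AS1 (-1.52, 0.0358) each lost their call without at least 2 of the libraries. Those were WT replicate 3 and no MYCN replicate 2 for WAC-AS1 (up to 0.064), and WT replicate 2 and no MYCN replicates 1 and 2 for OIP5-AS1 (up to 0.0975). For CLN8-AS1 they were WT replicate 1 and no MYCN replicates 1 and 3 (up to 0.0822), and for SOCS2-AS1 WT replicate 3 and no MYCN replicates 2 and 3 (up to 0.146).

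The rises with wild type MYCN were LOXL1-AS1, ATP6V0E2-AS1, TRHDE-AS1 and VPS9D1-AS1, and all 4 start inside the sense gene. In either direction, 8 antisense genes were called in the 40 pairs of that layout. Head to head it was 3 in 61 pairs and tail to tail 3 in 39, a difference not tested. LOXL1-AS1, facing a lysyl oxidase-like enzyme of elastin cross-linking, had 12.4, 13.5 and 12.9 CPM in WT-labelled libraries and 8.80, 6.72 and 8.42 CPM in those labelled no MYCN (0.70 ± 0.17, edgeR adjusted p = 0.00435), with 0.10 ± 0.12 in LOXL1 (0.616). ATP6V0E2-AS1, facing a proton pump subunit gene, had 7.88, 7.24 and 7.20 CPM in WT-labelled libraries and 3.84, 4.70 and 4.46 CPM in those labelled no MYCN (0.78 ± 0.21, 0.00764), with 0.60 ± 0.09 in ATP6V0E2 (3.4e-05). TRHDE-AS1 (0.61, 0.0327) lost its call without any of the 6 libraries, with DESeq2, with library totals and without a count filter (up to 0.114), and VPS9D1-AS1 (0.39, 0.0271) without WT replicate 1 or 2 or any library labelled no MYCN, and with library totals or no count filter (up to 0.0922).

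Of 145 pairs tested, 6 had both genes called in the comparison of wild type with no MYCN, and all 6 moved in the same direction. They were those of MSC-AS1, SOCS2-AS1, ATP6V0E2-AS1, TPT1-AS1, CLN8-AS1 and EMC3-AS1, and without no MYCN replicate 2 their number was 3. Opposite pairs numbered 0 in the 3 main layouts by edgeR, at an unadjusted p under 0.05 as well, and by DESeq2. The sense gene was called in 27.6% of pairs, and signs were alike in 62.1%. Across pairs the log2 fold changes had r = 0.43 and rho = 0.45 head to head (n = 61), r = 0.51 and rho = 0.52 with the start inside (n = 40) and r = 0.21 and rho = 0.07 tail to tail (n = 39), a description over pairs that share their libraries. Among 97 pairs of the other antisense genes, 0 had both genes called in either direction, and signs were alike in 63.9%. Their r was 0.03 head to head (n = 43), 0.55 with the start inside (n = 38) and 0.08 tail to tail (n = 14).

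With MYCN 3A, 7 antisense genes were higher and 2 lower in 3A-labelled libraries than in those labelled no MYCN, 5.45% of the 165, where 25.5% of all genes tested passed (12.7% higher and 12.8% lower). With library totals in place of TMM the split was 7 higher and 5 lower, a scaling that moves the median of all genes by -0.10. The median was 0.03, and -0.04 over all genes, and 30 had groups that did not overlap (18.2%, against 41.3%). The number higher was 4 without 3A replicate 3 or no MYCN replicate 1, and the number lower 1 without 3A or no MYCN replicate 1 or 3. This comparison shares its untreated libraries with that of wild type MYCN.

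FGD5-AS1, the most counted antisense gene in SHEP, fell. It had 102, 98.3 and 82.9 CPM in 3A-labelled libraries, against 138, 140.4 and 127 CPM in those labelled no MYCN (-0.52 ± 0.10, edgeR adjusted p = 5.4e-04). ZNF232-AS1, inside a zinc finger gene, had 14, 17.1 and 14.9 CPM in 3A-labelled libraries and 7.75, 7.84 and 10.5 CPM in those labelled no MYCN (0.82 ± 0.18, 0.00181), with ZNF232 at 0.06 ± 0.23 (0.881). IQCH-AS1 had 6.12, 7.74 and 7.25 CPM in 3A-labelled libraries and 3.6, 3.43 and 4.03 CPM in those labelled no MYCN (0.93 ± 0.23, 0.00526), with -0.16 in IQCH (0.765). These 3 kept their calls when single libraries were left out.

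VASH1-AS1 and PXN-AS1, both tail to tail, moved against the sense gene. VASH1-AS1 had 13.1, 7.91 and 12.8 CPM in 3A-labelled libraries and 7.5, 7.69 and 5.69 CPM in those labelled no MYCN (0.70 ± 0.21, edgeR adjusted p = 0.0159). VASH1, a tubulin carboxypeptidase, was at 2.83, 2.55 and 2.84 CPM in 3A-labelled libraries and 4.59, 3.96 and 7.42 CPM in those labelled no MYCN (-0.95 ± 0.30, 0.0241). PXN-AS1 had 14.4, 12.1 and 11.2 CPM in 3A-labelled libraries and 9.05, 7.61 and 8.06 CPM in those labelled no MYCN (0.61 ± 0.19, 0.0199), beside -0.26 ± 0.09 in PXN, the gene of the focal adhesion protein paxillin (0.0358). The log2 ratios of antisense to sense rose by 1.53 and 0.86 in 3A-labelled libraries, without overlap (exact permutation p = 0.10 each). Both pairs were picked for opposite calls in these same libraries, so the ratios restate those calls and add no evidence. Both calls rest on single libraries: VASH1-AS1 was not called without 3A replicate 1 or 3 or no MYCN replicate 3 (up to 0.0805), nor PXN-AS1 without 3A replicate 1 or no MYCN replicate 2 or 3 (up to 0.0877).

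The other calls with 3A were MAPKAPK5-AS1 (0.47, edgeR adjusted p = 0.0144), which moved with MAPKAPK5 (0.39, 0.0085), KTN1-AS1 (0.85, 0.0124), ZNF667-AS1 (0.50, 0.0155) and ZEB1-AS1 (-0.79, 0.029). MAPKAPK5-AS1 lost its call without 3A replicate 2 or 3 or no MYCN replicate 1 (up to 0.0648), KTN1-AS1 without 3A replicate 2 or no MYCN replicate 1 (up to 0.0758), and ZNF667-AS1 without 3A replicate 3 or no MYCN replicate 1 or 3 (up to 0.0683). ZEB1-AS1, beside the epithelial repressor gene ZEB1, lost its call without 3A or no MYCN replicate 1 or 3 and with DESeq2 (up to 0.138). Of 145 pairs, 1 had both genes called in the same direction and 2 in opposite directions, with 29.0% of sense genes called and signs alike in 45.5%. The pair in the same direction was lost without 3A replicate 2 or 3 or no MYCN replicate 1 or 2. Opposite pairs numbered 1 without 3A replicate 3, WT replicate 2 or no MYCN replicate 1 or 2, and 0 without 3A replicate 1 or 2 or no MYCN replicate 3. Across pairs r was 0.08 head to head (n = 61), 0.20 with the start inside (n = 40) and -0.11 tail to tail (n = 39). Among 97 pairs of the other antisense genes, 0 had both genes called in either direction, and signs were alike in 52.6%. Their r was 0.02 head to head (n = 43), 0.18 with the start inside (n = 38) and -0.22 tail to tail (n = 14).

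Between the forms, with doxycycline on both sides, 7 antisense genes were higher and 14 lower in WT-labelled than in 3A-labelled libraries. That is 12.7% of the 165, where 30.3% of all genes tested passed (15.8% higher and 14.5% lower). Library totals in place of TMM gave 8 higher and 10 lower. The median was -0.14, and 0.00 over all genes, and 46 had groups without overlap (27.9%, against 40.4%). The number higher was 4 without WT replicate 2 or 3A replicate 1 or 2 and 3 without WT replicate 1, and the number lower 9 without WT replicate 2 or 3A replicate 3. Mesenchymal markers summed to 6970.3 to 7210.0 CPM in WT-labelled and 5283 to 5632 CPM in 3A-labelled libraries, and adrenergic markers to 147 to 151 CPM in WT-labelled and 128 to 139 CPM in 3A-labelled ones. The part of either list in the result was not tested.

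CDK6-AS1 showed the largest fall, to 0.952, 1.43 and 0.494 CPM in WT-labelled libraries, against 2.39, 3.16 and 4.18 CPM in 3A-labelled ones (-1.75 ± 0.40, edgeR adjusted p = 0.00232), and CDK6 had 0.05 ± 0.10 (0.724). EMC3-AS1 had 11.8, 14 and 10.9 CPM in WT-labelled and 19.4, 19.3 and 20.3 CPM in 3A-labelled libraries (-0.68 ± 0.15, 0.00126), with -0.53 ± 0.09 in EMC3 (1.2e-04). ZNF667-AS1, head to head with a zinc finger gene, had 9.65, 12.6 and 11.2 CPM in WT-labelled and 18.8, 19.0 and 21.0 CPM in 3A-labelled libraries (-0.81 ± 0.15, 2.9e-04), and ZNF667 had -0.56 ± 0.29 (0.146). All 3 kept their calls under the alternatives tried.

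PXN-AS1 and LOXL1-AS1 also kept theirs. PXN-AS1 had 5.44, 5.80 and 8.19 CPM in WT-labelled libraries, against 14.4, 12.1 and 11.2 CPM in 3A-labelled ones (-0.96 ± 0.19, edgeR adjusted p = 6.3e-04). PXN was higher in WT-labelled libraries, at 284, 261 and 258 CPM against 170.2, 209 and 215 CPM with 3A (0.43 ± 0.09, 8.0e-04). The log2 ratio of the pair differed by -1.40 without overlap (exact permutation p = 0.10). Here too the pair was picked for opposite calls in the same libraries, so its ratio restates them. LOXL1-AS1 had 12.4, 13.5 and 12.9 CPM in WT-labelled and 6.94, 6.33 and 7.10 CPM in 3A-labelled libraries (0.93 ± 0.17, 3.4e-04), and here LOXL1 was higher too (0.64 ± 0.13, 6.6e-04).

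ZNF22-AS1, head to head with the zinc finger gene ZNF22 and printed above, had 1.36, 1.15 and 1.55 CPM in WT-labelled libraries and 0.298, 0.352 and 0.473 CPM in 3A-labelled ones. That is the largest rise (1.83 ± 0.57, edgeR adjusted p = 0.0185), on 20, 16 and 22 counts with WT and 4, 4 and 6 with 3A, and it moved with ZNF22 (0.83 ± 0.15, 2.4e-04). Its call was lost without WT replicate 1 or 3 or 3A replicate 1 or 2 (up to 0.0648). ZNF22-AS1 passed the count filter only through the WT-labelled libraries, so its entry into the test was not independent of this difference. HHIP-AS1, inside the hedgehog inhibitor gene HHIP, had 7.48, 8.45 and 10.2 CPM in WT-labelled and 4.03, 4.04 and 6.62 CPM in 3A-labelled libraries (0.83 ± 0.24, 0.0107), with 0.87 ± 0.11 in HHIP (5.5e-06). It was not called without 3A replicate 1 or 2 (up to 0.0566).

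TENM3-AS1 and TENM3 moved apart between the forms. TENM3-AS1 had 6.73, 5.45 and 6.07 CPM in WT-labelled and 8.88, 7.65 and 11.3 CPM in 3A-labelled libraries (-0.61 ± 0.19, edgeR adjusted p = 0.0185), and TENM3 58.5, 43.0 and 33.3 CPM in WT-labelled and 33.3, 35.9 and 30.1 CPM in 3A-labelled libraries (0.44 ± 0.15, 0.0272). The TENM3 libraries of the forms overlap, and TENM3 was at 58.0, 53.0 and 47.7 CPM in libraries labelled no MYCN. The TENM3-AS1 call was lost without WT replicate 2 or 3A replicate 3 (up to 0.121). Among the 145 pairs, 9 had both genes called in the same direction and 2, those of PXN-AS1 and TENM3-AS1, in opposite directions, with 40.0% of sense genes called and signs alike in 57.2%. Pairs in the same direction numbered 4 without 3A replicate 1 or 2, and opposite pairs 1 without 3A replicate 1 or 3 or WT replicate 1 or 2. The start lay inside the sense gene in 7 of the 9. In the 40 pairs of that layout, 9 antisense and 24 sense genes were called. Head to head the numbers were 5 and 18 in 61 pairs, and tail to tail 5 and 14 in 39. The difference between layouts was not tested. Across pairs r was 0.40 head to head (n = 61), 0.37 with the start inside (n = 40) and -0.02 tail to tail (n = 39). Among 97 pairs of the other antisense genes, 3 were called in the same direction and 0 in opposite directions, with signs alike in 56.7%. Their r was 0.05 head to head (n = 43), 0.38 with the start inside (n = 38) and -0.15 tail to tail (n = 14).

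**Figure D5:**
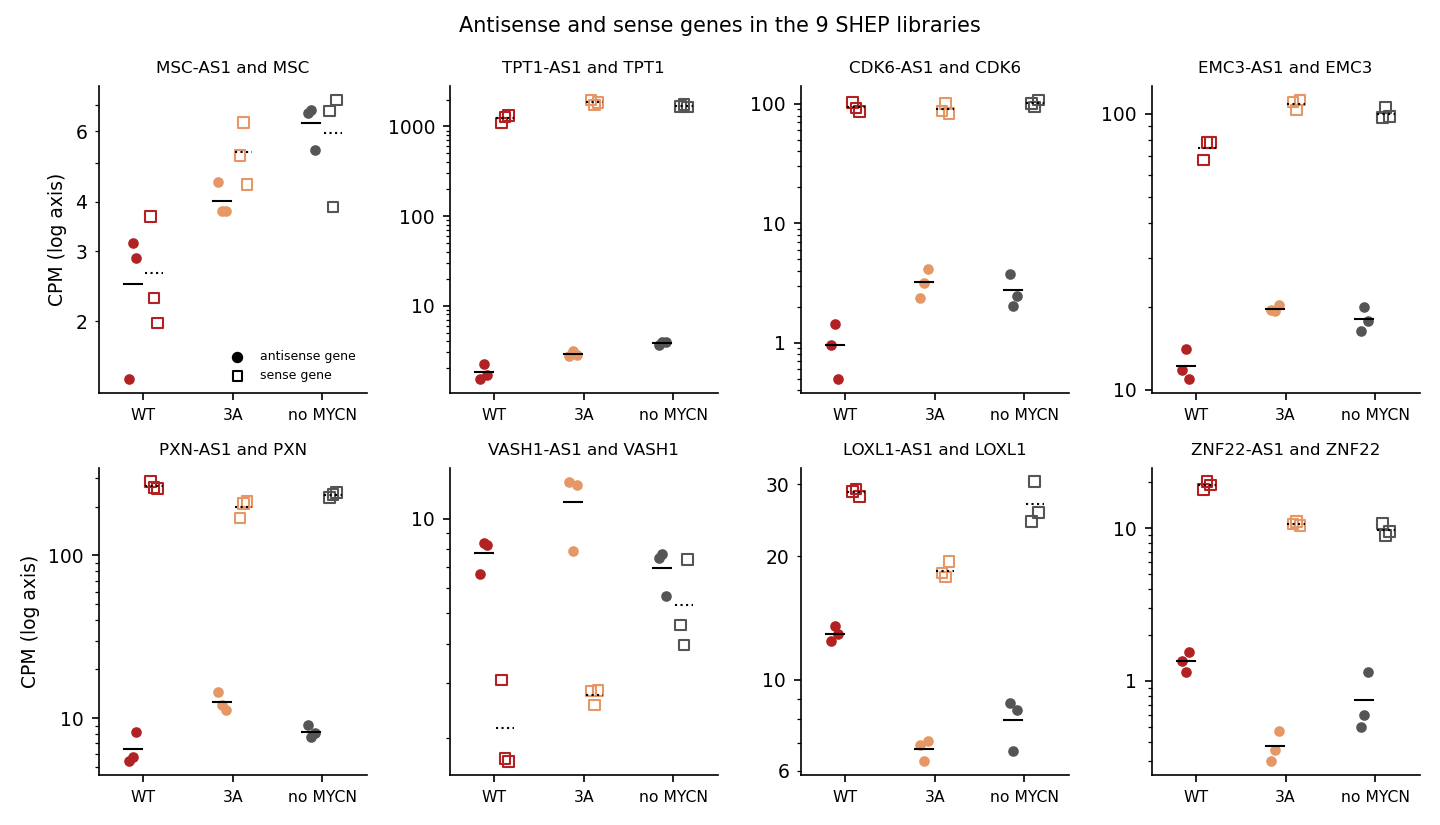
CPM (log axis) of 8 antisense genes (filled circles) and their sense genes (open squares) in each SHEP library labelled WT, 3A or no MYCN, with means of 3 libraries as solid and dotted bars. CDK6-AS1 is lowest in WT-labelled libraries while CDK6 lies between 83.6 and 108 CPM in all 3 groups, and PXN-AS1 is highest with 3A where PXN is lowest.

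Across the lines, 67 of the 244 antisense genes were called in at least 1 of the 4 comparisons and 177 in none, which is 27.5% called, where 49.7% of all 19074 genes tested in either line were. CDK6-AS1, EMC3-AS1, OIP5-AS1 and PSMA3-AS1 were called both on EXOSC10 depletion in IMR-32, where they are 4 of 42, and with wild type MYCN in SHEP, where they are 4 of 15, 2 comparisons that share no library. That is 2.42% of the 165 tested in both, where 8.23% of all 12952 genes tested in both were called in both. CDK6-AS1 and OIP5-AS1 were lower in both. CDK6-AS1 in IMR-32 had 11.2, 8.22 and 8.80 CPM in shEXOSC10 and 12.8, 13.2 and 12.5 CPM in controls (-0.45 ± 0.15, edgeR adjusted p = 0.0174), and there CDK6 fell with it (-0.38 ± 0.05, 2.3e-09). EMC3-AS1 was higher in shEXOSC10 and lower with wild type MYCN. PSMA3-AS1 did likewise, with 109, 109 and 109 CPM in shEXOSC10 and 92.2, 100.1 and 97.3 CPM in controls (0.18 ± 0.06, 0.0223). In IMR-32 the CDK6-AS1 call was lost without shEXOSC10 replicate 2 or 3 or control replicate 2 (up to 0.0919), and that of PSMA3-AS1 without any shEXOSC10 replicate or control replicate 1 (up to 0.101).

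ZNF232-AS1, called with 3A, was called in IMR-32 as well, in the other direction. It had 4.90, 2.84 and 2.35 CPM in shEXOSC10 and 6.22, 4.86 and 6.71 CPM in controls, which overlap (-0.82 ± 0.24, edgeR adjusted p = 0.00609), and the call was lost without shEXOSC10 replicate 3 (0.0924).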

How the data were processed

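Polyadenylated RNA, isolated with the NEBNext Poly(A) module per the labels' protocols, was sequenced in 15 libraries, and the other 74 of the 89 samples were not analysed here. Per the submitters' processing notes, reads were mapped with STAR 2.7.10a to hg19 and counted with featureCounts 2.0.3. The authors' deposited values are raw counts per gene, without normalization. Per the file headers the SHEP table used strand setting 2, a minimum overlap of 10 bases and Ensembl release 87, and counted reads that overlap several genes for each of them. Settings of the IMR-32 table are not given in the sources used here, but its gene models are identical. Among counts of 1 to 10, even values made up 65.5 to 77.1%, as when both ends of a fragment add to the count, so a count overstates the number of molecules. Symbols came from a table of Ensembl IDs.

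Groups follow the sample titles, and IMR-32 columns were joined by treatment and replicate number. R 4.3.3 with edgeR 4.0.16 (filterByExpr, TMM, robust quasi-likelihood F test, Benjamini-Hochberg at 0.05 over all genes tested) was run per table, the SHEP groups sharing 1 fit, after the script was tested on simulated data. DESeq2 1.42.0 was an alternative, as were other scalings, no filter, a replicate block and leaving out each library. Variation between replicates (edgeR's common biological coefficient) came to 0.077 for IMR-32 and 0.108 for SHEP. Standard errors are the log2 fold change divided by the square root of F. CPM use TMM-scaled totals, and log2 ratios of pairs a prior count of 2. Replicate numbers were not treated as pairs in the main fit, since in SHEP not every same-numbered pair of libraries correlated in its residuals. In IMR-32 every such pair did, at 0.075 to 0.17, against -0.13 to 0.0065 for pairs with different numbers.

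Named in the text are, by rule, the 8 members with the smallest p in each direction and comparison, up to 8 pairs called in both genes, the 8 highest levels in each line, members under 1 count in SHEP, and members of the adrenergic, homeobox, exosome and MYC lists. A few members that this rule takes in are not reported here. The exosome and MYC lists held the sense gene of none of the 244. The members and lists were chosen with earlier results of these data known.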

Additional observations from a re-analysis of the deposited data

Results flagged for a closer look

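Between the MYCN forms, 6 antisense genes stood apart because every WT-labelled library lay on one side of the mean of the libraries labelled no MYCN and every 3A-labelled library on the other, with an edgeR adjusted p under 0.05 for WT against 3A. That is 3.64% of the 165 tested, where 8.83% of all 14923 genes tested met the same conditions. Lower with WT and higher with 3A were EMC3-AS1 (log2 fold change of WT over 3A -0.68), PXN-AS1 (-0.96), PITPNA-AS1 (-0.72) and ZNF667-AS1 (-0.81). Higher with WT and lower with 3A were ZNF22-AS1 (1.83) and LOXL1-AS1 (0.93). Against no MYCN, EMC3-AS1 passed the test for its fall with WT (-0.55) and LOXL1-AS1 for its rise with WT (0.70), while PXN-AS1 (0.61) and ZNF667-AS1 (0.50) passed for their rise with 3A. ZNF22-AS1 and PITPNA-AS1 passed in neither of those comparisons. PITPNA-AS1 had 5.91, 4.8 and 6.35 CPM in WT-labelled, 9.10, 9.93 and 9.14 CPM in 3A-labelled and 7.44, 9.78 and 6.19 CPM in libraries labelled no MYCN (WT over 3A edgeR adjusted p = 0.00971), and its call was lost without WT replicate 2 (0.055). ZNF22-AS1 lost its call without WT replicate 1 or 3 or 3A replicate 1 or 2 (up to 0.0648). It passed the count filter only through the WT-labelled libraries.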

How the results depend on the processing

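No named gene changed sign under any alternative. With DESeq2's Wald test the opposite pairs on EXOSC10 depletion numbered 0 in place of 1 and the antisense genes lower with 3A 1 in place of 2. Library totals gave 2 in place of 4 higher with WT and 5 in place of 2 lower with 3A, and DESeq2 size factors 1 in place of 2 opposite pairs with 3A. Without a count filter 5 in place of 9 pairs were called in the same direction between WT and 3A. A mean count of 15 or more gave 2 opposite pairs on EXOSC10 depletion, and leaving out genes with same-strand overlaps, chosen after seeing the data, 0 in place of 1 same-direction pair with 3A. With the replicate block, 7 in place of 4 genes were higher with WT, and 2 opposite pairs in place of 1 were called on depletion. Residuals of same-numbered libraries correlated at 0.075 to 0.17 in IMR-32, where each library correlated best with its own number, and at -0.16 to 0.42 in SHEP. The block moved no other count by over 1.5 times. Leaving out single libraries gave 15 to 18 higher and 14 to 21 lower on depletion, 2 to 6 and 7 to 11 for WT, 4 to 8 and 1 to 3 for 3A, and 3 to 9 and 9 to 16 between the forms. Same-direction pairs ranged over 13 to 18, 3 to 7, 0 to 1 and 4 to 10, and opposite pairs over 0 to 3, 0 to 0, 0 to 2 and 1 to 3. Of 28 antisense to sense ratios, computed for 25 named pairs that were picked for calls in both genes, 13 (12 pairs) had groups without overlap, and 13 to 16 did without single libraries. Of the calls of named genes, 17 of 24 held without each library on depletion, 6 of 15 for WT, 3 of 9 for 3A and 5 of 18 between the forms. In SHEP 79 of the 244 did not pass the count filter, 18 of them without a count, and lack of expression and lack of depth were not told apart there.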
